A study of Saccharomyces cerevisiae with 3 samples.

Results

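The early response to glucose was examined in budding yeast (Saccharomyces cerevisiae) as the shift of the ratio between a strain lacking GCR1 and its wild type, 20 min after glucose was added against 0 min. The shift of a gene was its log2 strain ratio at 20 min minus its log2 strain ratio at 0 min, taken over the mean of the probes that carry its symbol, for every gene with a value on both arrays. It could be computed for 5595 of the 5598 genes measured in the series. Both strains, the gcr1 null mutant and the wild type, grew in YEP medium with 3% pyruvate until early or mid log phase. At 20 min, cells had received glucose in that medium 20 min earlier, and at 0 min they were collected immediately ahead of the addition. At each time, labelled cRNA of the mutant and of the wild type was hybridised together on 1 two-colour Agilent array, with Cy5 in channel 1 and Cy3 in channel 2, and a further array at 60 min is used here only for values set beside the shift. With 1 array per time there was no replicate and no test between times, so a gene was counted as changed when its ratio shifted by at least 2-fold, a log2 value of 1.0.

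Gcr1 is an activator that binds, together with Rap1 and Gcr2, at the promoters of glycolytic genes and is known for driving their high transcription. When glucose reaches yeast cells growing on a non-fermentable carbon source, wild-type cells are known to repress genes for respiration, gluconeogenesis and stress protection and to induce genes for glycolysis and for making ribosomes. A shift of the strain ratio compares the change of one strain over time with the change of the other, and does not say which of them changed.

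The labels do not state which strain is the numerator. The titles and the design name the mutant first, which makes mutant over wild type the likely direction. GCR1 (YPL075W) itself had a ratio of 0.91 at 20 min and 0.97 at 0 min, a shift of -0.06, with -0.06 and -0.05 from its 2 probes. A positive ratio of the deleted gene goes against that direction if those probes lie in the deleted part, and where they lie on the gene is not stated in the labels or annotation. At 0 min the 13 glycolytic genes, which Gcr1 is known to drive, had a median ratio of -3.43, against 0.07 over all genes. With the mutant as numerator, that sign means lower glycolytic expression in the mutant. The direction was not tested. Ratios are therefore called positive or negative, and a gene is said to rise or fall when its ratio did so by 2-fold or more. Factors that act with Gcr1 moved apart. TYE7, whose product is a basic helix-loop-helix factor that activates glycolysis, had a ratio of 3.15 at 20 min and 0.23 at 0 min. ABF1 encodes a factor that binds many promoters, and its ratio was -1.7 at 20 min and 0.41 at 0 min. REB1, another such factor, shifted by -1.02, RAP1 by -0.67 and GCR2 by -0.23.

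The ratio rose in 902 genes and fell in 916. That was 16.1% of all genes higher and 16.4% lower, and these shares are the background against which every list below is read. Over all genes the median shift was -0.09, with quartiles of -0.72 and 0.61 and a range from -3.86 to 5.16. Large shifts were more often upward, since 296 genes rose by 4-fold or more and 149 fell by as much, and 88 rose and 12 fell by 8-fold or more. Centring each array on its median moved every shift by 0.15 upward, which gave 1068 genes higher (19.1%) and 712 lower (12.7%), so that the share of changed genes that rose was 60.0% after centring and 49.6% without it. It also turned the median shift of all genes to 0.06. Counts below are of shifts without centring, and a gene within 0.15 of the 2-fold line can change its call with centring.

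Without scaling of the arrays, the shift was mostly a move away from equality of the strains. Ratios at 20 min had a standard deviation over genes of 1.17, against 0.47 at 0 min. Of the 902 genes that rose, 736 were within 2-fold at 0 min and at least 2-fold positive at 20 min, and of the 916 that fell, 728 were within 2-fold at 0 min and at least 2-fold negative at 20 min. In all, 95.3% of the 1818 changed genes lay farther from 0 at 20 min than at 0 min. A gene that starts close to 0 and shifts by 2-fold or more must end farther from 0. That share therefore follows largely from the narrow 0 min array and is no separate evidence. Because the spread of the 0 min array was so much narrower, dividing each array by its own spread multiplies the 0 min ratios by 3.22 relative to those at 20 min. That scaling is an extreme alternative, called equal spread below, and groups whose direction or counts it turns are given with those values. Under equal spread the median shift of all genes was 0.10, and 1417 genes (25.3%) were higher and 1041 (18.6%) lower. Of these, only 466 and 385 moved from within 2-fold at 0 min to beyond it at 20 min. The move away from equality was thus not kept for most changed genes under that scaling.

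**Figure D1:**
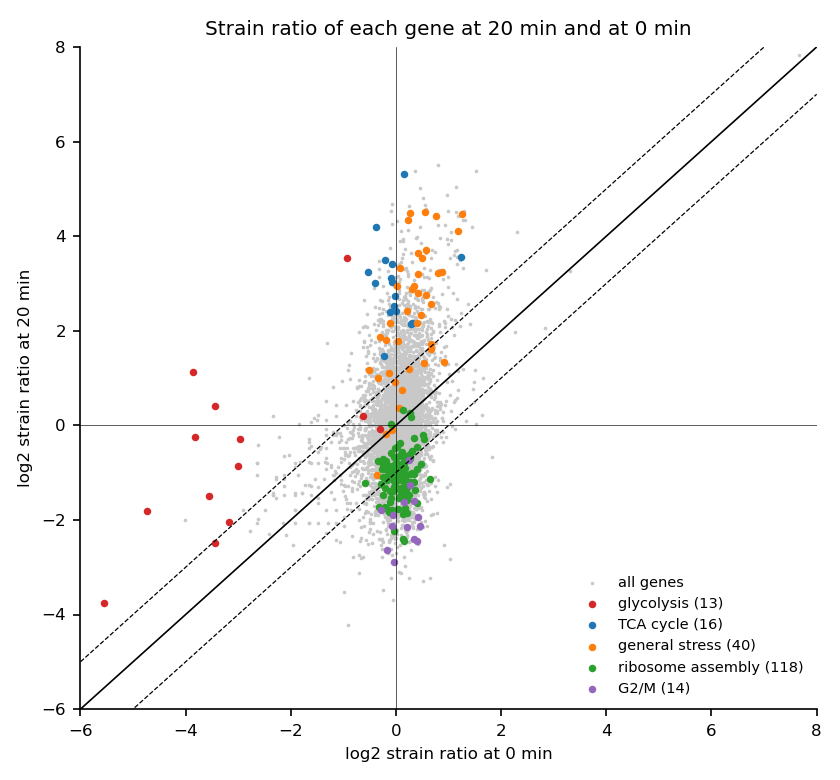
Each point is a gene, with its log2 strain ratio at 0 min on the horizontal axis and at 20 min on the vertical axis, and genes of 5 lists are coloured with the number of members in brackets. The solid diagonal marks no shift and the dashed lines a shift of 2-fold; all 16 TCA cycle genes and 38 of 40 general stress genes lie above the diagonal, the 13 glycolytic genes lie above it, 10 of them from at least 2-fold negative starting values, and 116 of 118 ribosome assembly genes and all 14 G2/M genes lie below it, while under equal spread the TCA gene CIT3 would lie below it.

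Precision could be judged only within arrays. The shifts of 2 probes of the same gene differed by a median of 0.10, and 95% of 3560 probe pairs differed by less than 0.44. Of 539 risen genes with more than 1 probe, 490 rose at every probe, and of 590 such fallen genes, 528 fell at every probe. Probe pairs read the same cRNA, so variation between cultures, labelling and arrays is not in these values. A constant dye bias of a probe cancels in the shift, but a bias that differs between the 2 arrays does not. Of the 5595 genes, 526 had values on at least 1 array that were ratios of small whole numbers, taken here as a mark of dim spots, and these included 72 of the risen and 67 of the fallen genes.

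Most glycolytic genes moved towards equality. Of 13 genes, 10 rose and none fell, with a median shift of 2.14 (4.40-fold), and all 13 shifts were above 0, also under equal spread and after centring. The list median was -0.28 at 20 min and -3.43 at 0 min, while over all genes the median ratio was -0.08 at 20 min and 0.07 at 0 min. The enzymes of the lower part of the pathway, from glyceraldehyde-3-phosphate to pyruvate, had a median shift of 3.26 with 7 of 8 genes higher. The upper enzymes had a median of 1.12 with 3 of 5 higher.

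ENO1 (YGR254W), 1 of the enolases, had a ratio of 1.12 at 20 min and -3.86 at 0 min, the largest glycolytic shift at 4.99. Its partner ENO2 had -1.8 at 20 min and -4.73 at 0 min, so that it rose by 2.92 and stayed negative. The glyceraldehyde-3-phosphate dehydrogenases differed in where they ended. TDH1 had 3.53 at 20 min and -0.94 at 0 min, TDH2 had 0.41 and -3.45, and TDH3 had -0.24 and -3.83, so TDH1 alone of them passed far to the positive side. Aldolase FBA1 stood at -0.28 at 20 min and -2.96 at 0 min, and phosphoglycerate kinase PGK1 at -0.86 and -3.0. Triosephosphate isomerase TPI1 had -1.5 at 20 min and -3.56 at 0 min. Phosphoglycerate mutase GPM1 remained the most negative of the 13, with -3.75 at 20 min and -5.55 at 0 min, although its shift was 1.8. The remaining members shifted less. Phosphoglucose isomerase PGI1 shifted by 1.12, pyruvate kinase CDC19 by 0.94, and the phosphofructokinase subunits PFK1 and PFK2 by 0.81 and 0.21. PFK1 and PFK2 began near equality, at -0.62 and -0.29 at 0 min, and had 0.19 and -0.08 at 20 min. The TDH genes and the enolases are similar in sequence, and cRNA of one can bind the probes of another, so the size of their split is uncertain.

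**Figure D2:**
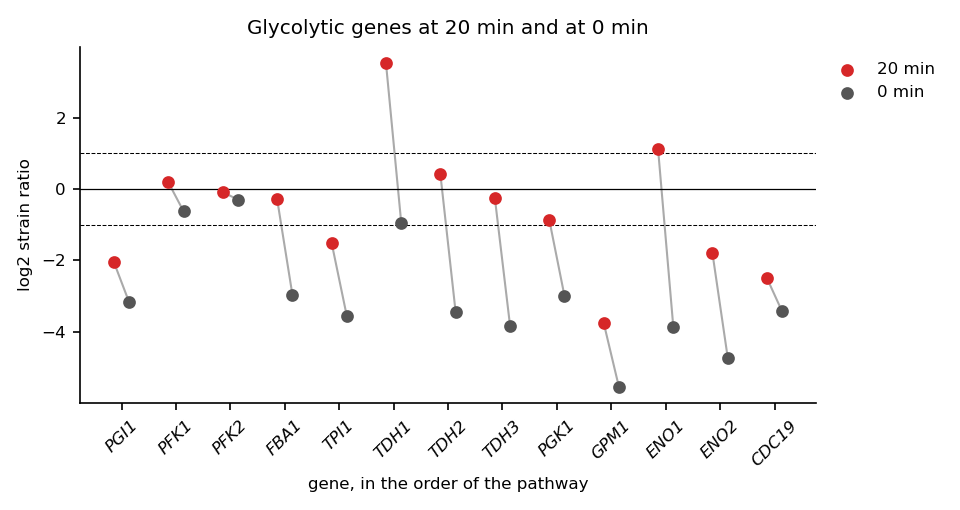
The log2 strain ratio of the 13 glycolytic genes is plotted in the order of the pathway, with red points for the 20 min array and grey points for the 0 min array, 1 array each. Every red point lies above its grey partner, TDH1 and ENO1 end above 1 and GPM1 stays lowest at -3.75; the dashed lines mark 2-fold.

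Few genes outside glycolysis behaved in that way. Of 125 genes that were at least 2-fold negative at 0 min, 45 rose, but 32 of these 45 had values of small whole-number ratios on at least 1 array. Among the other 13, 9 belonged to the glycolysis list and the remaining 4 were ADH1, PET122, INO1 and MMS21, which were singled out after their values were seen. ADH1, the main alcohol dehydrogenase, had -0.41 at 20 min and -2.62 at 0 min. PET122, a translational activator for a mitochondrial mRNA, had -2.0 at 20 min and -4.01 at 0 min, so it rose and stayed strongly negative. INO1, the enzyme that makes inositol phosphate, had 0.43 and -1.14, and MMS21, a SUMO ligase, had 0.20 and -1.15 at those times.

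Genes beside glycolysis that handle glucose and ethanol mostly rose, many of them from near equality. GLK1, ADH1 and ADH5 rose from ratios already beyond 2-fold at 0 min. All 4 hexose-phosphorylating enzymes rose (2 under equal spread), with a median shift of 2.05. The hexokinases HXK1 and HXK2 had ratios of 2.67 and 1.42 at 20 min, against 0.20 and -0.09 at 0 min. The glucokinases GLK1 and EMI2 had 4.18 and 2.21 at 20 min, against 1.44 and 0.59 at 0 min, but under equal spread the shift of GLK1 turned to -0.14. Of 7 fermentation genes 5 rose. They included all 4 alcohol dehydrogenases, with shifts of 3.02 for the mitochondrial ADH3, 2.20 for ADH1, 2.18 for ADH4 and 1.79 for ADH5. ADH5 had 4.10 at 20 min and 2.31 at 0 min, and its shift turned to -3.03 under equal spread. The fifth was PDC6, a minor pyruvate decarboxylase, at 3.31 at 20 min and -0.33 at 0 min, where its value was one of small whole numbers. The main pyruvate decarboxylases PDC1 and PDC5 shifted by 0.03 and -0.25. Of the 3 minor glycolytic isozymes, GPM2 had 5.5 at 20 min and 0.81 at 0 min, PYK2 rose by 1.13 and GPM3 shifted by 0.25.

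Hexose transport genes had 4 of 18 higher and 4 lower, shares not far above the background, and a median shift of 0.35. That balance was not kept under equal spread, which gave 11 higher, 2 lower and a median of 1.5, and 7 of the 18 had values of small whole-number ratios. HXT2, a high-affinity glucose transporter, fell to -2.82 at 20 min, against 1.02 at 0 min, a shift of -3.84. The close copies HXT6 and HXT7, also of high affinity, stood at -2.25 and -2.15 at 20 min, against -0.52 and -0.67 at 0 min, and HXT7 turned to 0.33 under equal spread. HXT1, a low-affinity transporter, had 1.7 at 20 min and 0.08 at 0 min, and HXT4 and HXT5 shifted by 1.22 and 1.37. HXT14 shifted by 1.85 between values of small whole numbers. The sensor SNF3 shifted by -1.09 and the sensor RGT2 by 0.76. SUC2, the secreted invertase, had 2.36 at 20 min and -0.55 at 0 min, a shift of 2.92, while the galactose genes GAL1, GAL7 and GAL10 shifted by 0.23, -0.22 and 0.19.

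Nearly all respiratory genes rose. In the TCA cycle 16 of 16 genes rose, with a median shift of 2.92 (7.59-fold), and under equal spread 15 of 16 still lay above 0, with CIT3 at -0.11. The list stood at a median ratio of 3.01 at 20 min and -0.07 at 0 min. CIT1 (YNR001C), mitochondrial citrate synthase, had the largest shift of all genes, with 5.32 at 20 min and 0.16 at 0 min, a 35.8-fold shift that its 2 probes put at 5.19 and 5.13. SDH3, a membrane subunit of succinate dehydrogenase, had 4.19 at 20 min and -0.38 at 0 min. The other subunits SDH1, SDH2 and SDH4 shifted by 3.7, 3.4 and 3.19, and the subunits of NAD-dependent isocitrate dehydrogenase, IDH1 and IDH2, by 3.49 and 3.78. The smallest shifts of the list were 1.69 for aconitase ACO1, whose ratio was 1.46 at 20 min and -0.24 at 0 min, and 1.86 and 1.87 for the succinyl-CoA ligase subunits LSC2 and LSC1.

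Oxidative phosphorylation followed with 35 of 38 genes higher, none lower and a median shift of 2.44 (5.42-fold), and under equal spread 35 of 38 lay above 0. All 9 measured genes of the cytochrome bc1 complex rose, with QCR2 highest at 4.26 at 20 min and -0.08 at 0 min. All 15 ATP synthase genes rose, in a range from 3.13 for ATP16 to 1.62 for TIM11. Of 9 cytochrome c oxidase genes 8 rose, from COX6 at 3.20 to COX5A at 1.37, and the exception was COX5B, the hypoxic form of subunit 5, with 0.44. Cytochrome c rose in both forms, CYC1 by 1.77 and CYC7 by 1.43. The NADH dehydrogenases did not move alike, and the 2 external enzymes shifted in opposite directions. The internal enzyme NDI1 had 3.14 at 20 min and -0.01 at 0 min, whereas the external enzymes NDE1 and NDE2 had -0.50 and 1.44 at 20 min, against 0.36 and 0.74 at 0 min, and the median of these 3 turned to -0.64 under equal spread.

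The counts for the machinery that makes and imports mitochondrial proteins depended on the scaling. Of 54 mitochondrial ribosomal protein genes 7 rose, a share near the background, and none fell, against 16.4% of all genes. Their median shift was 0.33, 40 of the 54 lay above 0, and RSM19 was highest at 1.44. Under equal spread 33 of the 54 were higher, all 54 lay above 0 and the median was 1.27. Of 27 mitochondrial import genes 3 rose and 1 fell, with a median of 0.40, and under equal spread 15 were higher with a median of 1.10. The Hap2/3/4/5 complex activates respiratory genes, and its activation subunit HAP4 fell to -1.94 at 20 min, against -0.12 at 0 min. HAP2, HAP3 and HAP5 shifted by 0.53, 0.91 and 0.43. Among other activators, CAT8, which controls gluconeogenic genes, had 2.27 at 20 min and 0.17 at 0 min, and ADR1, which controls ADH2 and peroxisomal genes, had 2.76 and 0.26. Over the 13 activators 2 rose and 2 fell, shares near the background, with a median of 0.43 that was -0.17 over the members with more than 1 probe.

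Genes for using non-fermentable carbon rose in 16 of 22 cases and fell in 1, with a median shift of 2.0. Under equal spread 12 were higher and 3 lower. All 5 genes for ethanol and acetate use rose (3 under equal spread), with a median of 3.26. ACH1 (YBL015W), which transfers CoA between acetyl-CoA and other acids, had 5.38 at 20 min and 0.36 at 0 min, the second largest shift of all genes at 5.03. Aldehyde dehydrogenase ALD4 shifted by 3.38 and alcohol dehydrogenase ADH2 by 3.26, and acetyl-CoA synthetase ACS1 shifted by 1.31, which turned to -0.58 under equal spread. In gluconeogenesis, pyruvate carboxylase PYC1 had 4.67 at 20 min and 0.56 at 0 min, fructose-1,6-bisphosphatase FBP1 rose by 2.57 and PEP carboxykinase PCK1 by 1.76. In the glyoxylate cycle, CIT2, the peroxisomal citrate synthase, had 5.04 at 20 min and 1.15 at 0 min, and isocitrate lyase ICL1 and malate synthase MLS1 rose by 2.14 and 2.03. The transporters diverged. SFC1, the succinate-fumarate carrier, rose by 3.32, JEN1, the pyruvate and lactate permease, shifted by 0.69, and ADY2, the acetate transporter, fell to -0.67 at 20 min, against 1.83 at 0 min. The 4 carnitine shuttle genes had a median shift of 1.32, which turned to -0.40 under equal spread, and the 4 transport genes had 0.88, which turned to -0.35.

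**Figure D3:**
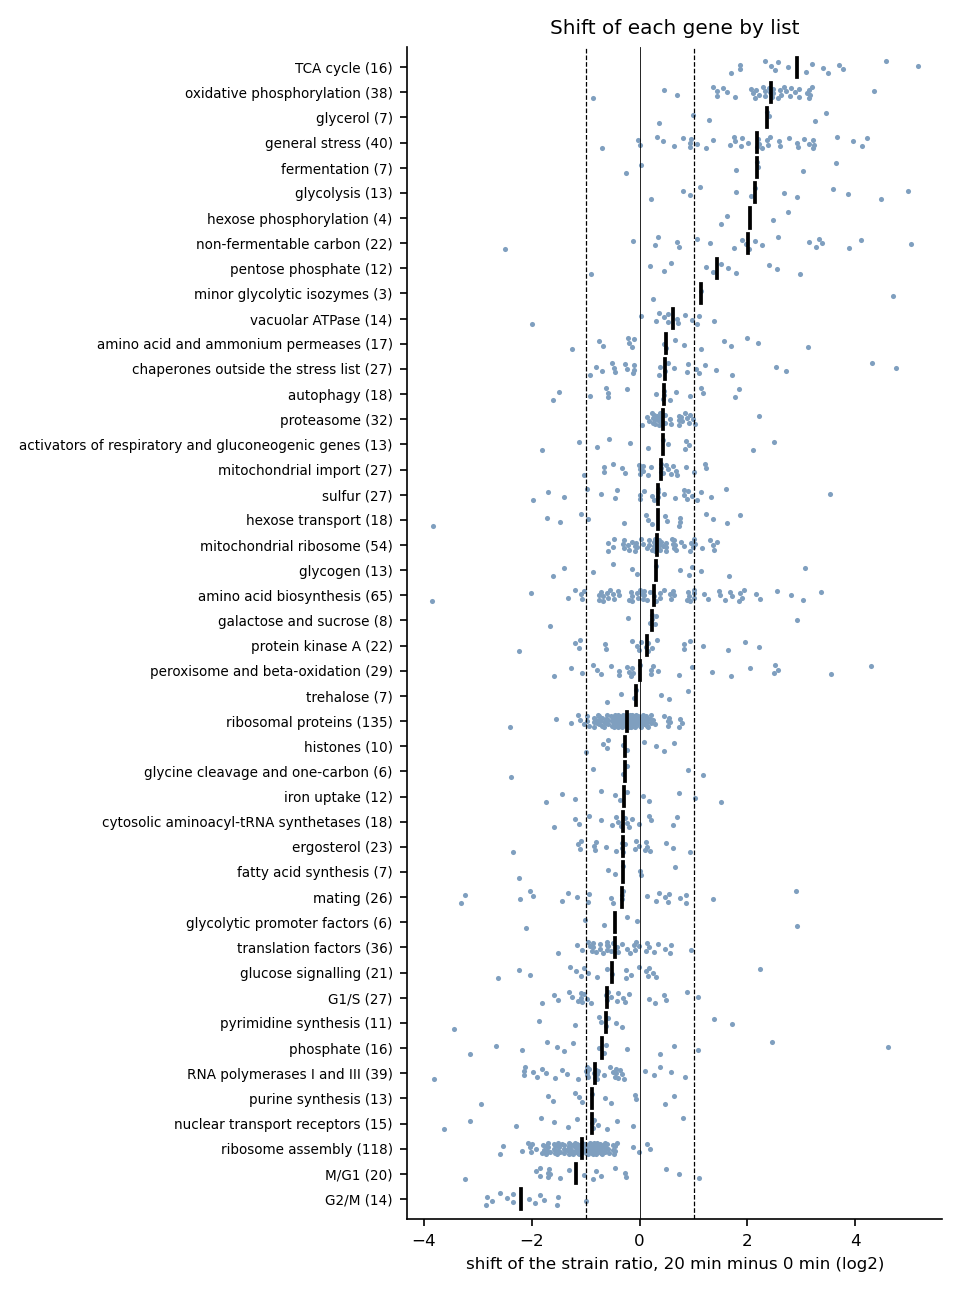
Each row is a gene list with the number of measured members in brackets, each point a member at its shift of the log2 strain ratio, 20 min minus 0 min, and each black bar the list median. Lists are ordered by median, from TCA cycle genes at the top (2.92) to G2/M genes at the bottom (-2.20), and the dashed lines mark 2-fold; under equal spread the medians of the glycogen, protein kinase A and permease lists turn negative and those of the ribosomal protein, glycine and one-carbon, and mating lists turn positive.

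Peroxisomal enzymes did not all move alike. Of 13 genes of fatty acid activation and beta-oxidation 7 rose and 2 fell, and the fallen share was near the background. After centring 1 was lower, whereas under equal spread 3 were higher and 6 lower. FOX2, the multifunctional beta-oxidation enzyme, had 4.81 at 20 min and 0.51 at 0 min, and the acyl-CoA synthetase FAA2 and the thiolase POT1 rose by 3.55 and 2.49. The first enzyme of the pathway, the acyl-CoA oxidase POX1, shifted by -0.38, catalase CTA1 by -1.08 and the fatty acid transporter FAT1 by -1.58. Of 16 peroxisome assembly genes 1 rose and 1 fell, with a median of -0.06 that was 0.09 after centring.

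In the pentose phosphate pathway 8 of 12 genes rose, with a median shift of 1.43. The transketolase TKL2 had 3.57 at 20 min and 1.16 at 0 min, and the transaldolase TAL1 and glucose-6-phosphate dehydrogenase ZWF1 rose by 1.65 and 1.22. The 6-phosphogluconate dehydrogenase GND1 shifted by 1.5, which turned to -0.76 under equal spread, and ribose-5-phosphate isomerase RKI1 by -0.91. Glycerol genes rose in 5 of 7 cases, with a median of 2.36. The glycerol-3-phosphate phosphatases GPP2 and GPP1 had 3.36 and 1.53 at 20 min, against 0.10 and -0.86 at 0 min, and GUT2, which oxidises glycerol-3-phosphate in mitochondria, rose by 2.36. GPD2 rose by 3.46 from a value of small whole numbers at 0 min, while GPD1, the other glycerol-3-phosphate dehydrogenase, shifted by 0.35.

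Storage carbohydrate genes did not move as a group. None of the 7 trehalose genes reached 2-fold in either direction, and their median shift was -0.07. After centring 1 was higher and the median was 0.08, and under equal spread 3 were lower. Of 13 glycogen genes 3 rose and 2 fell, with a median of 0.31 that was -0.02 under equal spread. Glycogen phosphorylase GPH1, which breaks glycogen down, had 3.64 at 20 min and 0.58 at 0 min, and PGM2 and GLG2 rose by 1.65 and 1.13. Glycogenin GLG1 and the phosphatase subunit GAC1 shifted by -1.40 and -1.61, the last ending on a value of small whole numbers.

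General stress genes rose in 30 of 40 cases and none fell, with a median shift of 2.19 (4.55-fold), and under equal spread 36 of 40 lay above 0. Among the chaperones of the list, HSP104, a disaggregase, had 4.49 at 20 min and 0.27 at 0 min. HSP30, a membrane protein of the stress response, had 4.35 and 0.23, and HSP12 had 4.42 and 0.75 at those times. HSP78 and HSP42 rose by 3.24 and 3.04, while SSA3 shifted by 0.01. In redox defence 7 of 10 genes rose. Cytosolic catalase CTT1 had 4.51 at 20 min and 0.55 at 0 min, the mitochondrial peroxiredoxin PRX1 rose by 2.95 and the mitochondrial superoxide dismutase SOD2 by 2.18. The cytosolic superoxide dismutase SOD1 shifted by -0.02. In the remainder of the list GCY1, an aldo-keto reductase, YGP1, a secreted glycoprotein, OM45, a mitochondrial outer membrane protein, and ALD3, an aldehyde dehydrogenase, led with 3.22, 3.21, 3.14 and 2.93.

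Other chaperones were less uniform. Of 27 genes outside the stress list 9 rose and none fell, with a median of 0.46, and under equal spread 12 were higher and 3 lower. SSA1 (YAL005C), a cytosolic Hsp70, had 4.67 at 20 min and -0.08 at 0 min, and HSP82 (YPL240C), the inducible Hsp90, had 4.33 and 0.02. SIS1, an Hsp40 partner of Hsp70, and SSE2, an Hsp110, rose by 2.71 and 2.52. Proteasome genes shifted little but in 1 direction, with all 32 above 0 (28 under equal spread), a median of 0.43 and 2 genes higher, PRE3 at 2.22 and PUP2 at 1.03, a count that was 6 after centring and 7 under equal spread. Autophagy genes had 4 of 18 higher and 2 lower, shares not far from the background, led by ATG8, the ubiquitin-like protein of the autophagosome, with 1.85. Of 14 vacuolar ATPase genes 3 rose and 1 fell, again not far from the background. The 1 that fell was STV1, the Golgi form of the largest membrane subunit, at -2.01.

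Upstream of the stress genes, signalling genes of the protein kinase A pathway rose in 4 of 22 cases and fell in 4, shares near the background. Their median was 0.14, and -0.01 under equal spread. The cAMP phosphodiesterase PDE1 had 2.71 at 20 min and 0.51 at 0 min. The stress activator MSN2 had 2.13 and 0.17, and SRV2, which binds adenylate cyclase, and the transcription factor SOK2 rose by 1.63 and 1.18. The small GTPase RAS1 fell to -1.57 at 20 min, against 0.67 at 0 min, and GPA2, YAK1 and SCH9 shifted by -1.2, -1.12 and -1.11. Glucose signalling genes had 1 of 21 higher and 7 lower. The repressors MIG1 and MIG2 fell to -1.89 and -1.84 at 20 min, against 0.15 and 0.78 at 0 min. GRR1, the F-box protein needed for glucose induction of hexose transporters, fell to -2.52 at 20 min, against -0.29 at 0 min. TOS3, a kinase that activates Snf1, was the 1 gene that rose, at 2.24, while SNF1 and SNF4 shifted by -0.79 and -0.97.

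Genes for building ribosomes held the most fallen members of any list. Of 118 ribosome assembly genes 63 fell and none rose, with a median shift of -1.07 (2.09-fold), and 116 of 118 were below 0 (106 under equal spread). Since the median lay close to the 2-fold line, the count was 51 after centring, and it was 47 under equal spread. The median ratio of the list was -1.02 at 20 min and 0.05 at 0 min. Factors of the small subunit fell in 29 of 57 cases and those of the large subunit in 34 of 61. DHR2, a helicase of the small subunit processome, had -2.40 at 20 min and 0.14 at 0 min, and UTP22 and UTP20 of the same particle shifted by -2.19 and -2.0. SDA1, a large subunit assembly factor, had -2.45 at 20 min and 0.14 at 0 min, and RIX1 and NOP4 shifted by -2.07 and -2.04. Of 39 genes of RNA polymerases I and III 13 fell and none rose, with a median of -0.83. RRN3 (YKL125W), which brings polymerase I to the ribosomal DNA promoter, had -3.29 at 20 min and 0.51 at 0 min, the second lowest shift of the 24 genes at the extremes. RPO31, the largest subunit of polymerase III, and RPA43 of polymerase I shifted by -2.14 and -2.13.

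The direction of the ribosomal proteins themselves depended on the scaling. Of 135 genes 6 fell and none rose, with a median shift of -0.24, and after centring 3 fell. Under equal spread 39 were higher, none were lower, 115 lay above 0 and the median was 0.64. At 0, 20 and 60 min the median ratio of the list was -0.30, -0.56 and -2.07. The exception in size was RPS9A, at -3.11 at 20 min and -0.70 at 0 min, a shift of -2.41. RPL18B and RPS7B shifted by -1.55 and -1.28, and RPL7B and RPL12A shifted by -1.15 and -1.03 but turned to 1.37 and 0.06 under equal spread. Copies of a ribosomal protein gene are near-identical, and their split is uncertain. Translation initiation factors fell in 3 of 25 cases with a median of -0.60, and cytosolic aminoacyl-tRNA synthetases in 3 of 18 with a median of -0.31, shares near the background.

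Nuclear transport receptors fell in 7 of 15 cases and none rose, with a median shift of -0.89. KAP122 (YGL016W), an importin, had -3.69 at 20 min and -0.06 at 0 min. Its 2 probes gave shifts of -4.15 and -3.12, farther apart than the typical pair. LOS1 (YKL205W), the exportin of tRNA, had -3.23 at 20 min and -0.09 at 0 min, and NMD5 and PSE1 shifted by -2.29 and -1.83. MSN5, an exportin of phosphorylated proteins, shifted by 0.80 in the other direction, and the main importin pair KAP95 and SRP1 by -0.13 and -0.41.

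Cell cycle genes differed by phase. The G2/M genes had the largest share of fallen members of all lists, with 13 of 14 lower, a median shift of -2.20 (4.60-fold) and all 14 below 0, also under equal spread. SWI5 (YDR146C), the activator of genes at the end of mitosis, had -2.89 at 20 min and -0.04 at 0 min. The polo kinase CDC5 had -2.44 at 20 min and 0.40 at 0 min, and HOF1, which acts in cytokinesis, had -2.41 and 0.33. The protein kinase gene ALK1 fell by 2.58, and MOB1, at -0.99, was the member just inside the 2-fold line. Of the 20 M/G1 genes 11 fell and 1 rose. In their replication licensing subgroup 9 of 12 fell, with a median of -1.57. All 6 subunits of the MCM helicase fell, from MCM7 with -2.07 at 20 min and -0.15 at 0 min to MCM4 with -0.78 and 0.25. The cell separation genes of M/G1 had no common direction. Their median was -0.49, which turned to 0.05 under equal spread, with the chitinase CTS1 higher by 1.10 and the glucanase gene DSE4 lower at -1.84. Of 27 G1/S genes 10 fell and 1 rose, with a median of -0.60, led by CDC45, which works with the MCM helicase, at -1.81. None of the 10 histone genes reached 2-fold, and under equal spread 2 were lower.

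Mating genes fell in 8 of 26 cases and rose in 2, with a median of -0.33. Under equal spread the median turned to 0.50, with 4 lower and 10 higher. MF(ALPHA)2 (YGL089C), a gene of the alpha pheromone, had -4.22 at 20 min and -0.91 at 0 min, and MF(ALPHA)1 had -2.73 and -0.70. STE3, the receptor for a-factor, had -2.21 at 20 min and 0.02 at 0 min. Of 9 pheromone, receptor and mating-type-specific genes these 3 fell and none rose. The others lay between -0.95 for STE2 and 0.53 for AGA2, and 3 of the 9 had values of small whole-number ratios. FAR1 (YJL157C), which arrests the cell cycle in response to pheromone and is also an M/G1 gene, had -3.48 at 20 min and -0.25 at 0 min. PRM1, a membrane fusion protein, moved the other way, with 2.50 at 20 min and -0.40 at 0 min, and the kinase FUS3 rose by 1.36.

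Amino acid biosynthesis divided by pathway, with 20 of 65 genes higher, 7 lower and a median shift of 0.26. Under equal spread 20 were higher and 14 lower. Lysine genes rose in 6 of 8 cases, with a median of 1.87. The homocitrate synthases LYS20 and LYS21 had 3.65 and 2.19 at 20 min, against 0.29 and 0.35 at 0 min, and LYS1, the last enzyme of the pathway, rose by 2.81. LYS5, which activates the enzyme Lys2, was the member that fell, at -1.20. Among branched-chain genes LEU2 had 3.71 at 20 min and 0.69 at 0 min and the cytosolic transaminase BAT2 rose by 2.54. Glutamine synthetase GLN1 rose by 2.23 and the glutamate dehydrogenase GDH3 by 2.16. None of the 13 aromatic pathway genes rose and TRP4 fell at -1.33, with a median of -0.14 that was 0.01 after centring. SER3 (YER081W), a phosphoglycerate dehydrogenase that starts serine synthesis from a glycolytic intermediate, had -3.22 at 20 min and 0.64 at 0 min, a 14.5-fold shift that was the lowest of all genes.

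Among nucleotide synthesis genes, those for purines fell more often than they rose. Of 13 purine genes 6 fell and none rose, with a median of -0.89. In the pathway to IMP, 5 of 8 fell, with ADE17 at -2.79 at 20 min and 0.15 at 0 min and ADE4, the first enzyme, at -1.23 and 0.47. Of 11 pyrimidine genes 3 fell and 2 rose, too few to tell from the background, and under equal spread none were higher. FUI1 (YBL042C), the uridine permease, had -2.54 at 20 min and 0.92 at 0 min, and URA1, dihydroorotate dehydrogenase, fell by 1.87. URA8, a CTP synthase, shifted by 1.71, which turned to -0.40 under equal spread, and URA10 shifted by 1.38. Glycine and one-carbon genes had a median of -0.27, which turned to 0.17 under equal spread. Among them MTD1 fell to -2.05 at 20 min, against 0.34 at 0 min, and ADE3 rose by 1.18.

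Nutrient uptake and lipid genes varied within each list. Sulfur genes rose in 5 of 27 cases and fell in 3, shares not far from the background. SAM3, the S-adenosylmethionine permease, had 4.52 at 20 min and 0.99 at 0 min, whereas the S-adenosylmethionine synthetases SAM1 and SAM2 shifted by -1.98 and -1.41 and the methionine synthase MET6 by -1.7. Of 17 amino acid and ammonium permeases 6 rose and 1 fell, with a median of 0.50. Under equal spread 3 were higher and 4 lower, and the median turned to -0.20. DIP5, the permease of acidic amino acids, had 3.96 at 20 min and 0.83 at 0 min. Phosphate genes fell in 7 of 16 cases and rose in 3. The transporters PHO84 and PHO89 had -1.6 and -3.09 at 20 min, against 0.58 and 0.05 at 0 min, and the acid phosphatase PHO3 fell by 2.67. PHM8, a phosphatase of nucleotides and lysophosphatidic acid, had 4.53 at 20 min and -0.09 at 0 min, and the vacuolar phosphatase PHO8 rose by 2.46. Ergosterol genes fell in 4 of 23 cases, a share near the background, and none rose. The lowest, ERG3, shifted by -2.34 to a value of small whole numbers, and ERG5 shifted by -1.10, which turned to 0.21 under equal spread. In fatty acid synthesis the elongase ELO3 fell by 2.23, and FAS1 and FAS2 shifted by 0.02 and 0.0. Of 12 iron uptake genes 2 rose and 3 fell, too few to tell from the background, with a median of -0.30 that was 0.06 without genes of small whole-number ratios.

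Several pairs of isozymes or paralogs differed in their shift by more than 2-fold. These pairs were chosen after their values were seen, so the differences are descriptions. PYC1 and PYC2, the pyruvate carboxylases, shifted by 4.11 and 0.35. HSP82 and its constitutive relative HSC82 shifted by 4.31 and 0.38, and SSA1 and SSA2 by 4.75 and 1.11. NDI1 and NDE1 differed by 4.0 and PDC6 and PDC1 by 3.61. Among pairs in which the first member fell, SER3 and SER33 shifted by -3.86 and -0.71, and ADE17 and ADE16 by -2.94 and 0.64. LEU9 and LEU4, the isopropylmalate synthases, shifted by -2.02 and 1.26, and RAS1 and RAS2 by -2.23 and 0.15. The differences kept their sign under equal spread, except that GPM2 and GPM1, which shifted by 4.69 and 1.8, differed by -11.19 there in place of 2.9. Other pairs moved alike, such as GND2 and GND1 with 1.79 and 1.5. Partners of similar sequence can share signal, which would make them appear more alike.

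**Figure D4:**
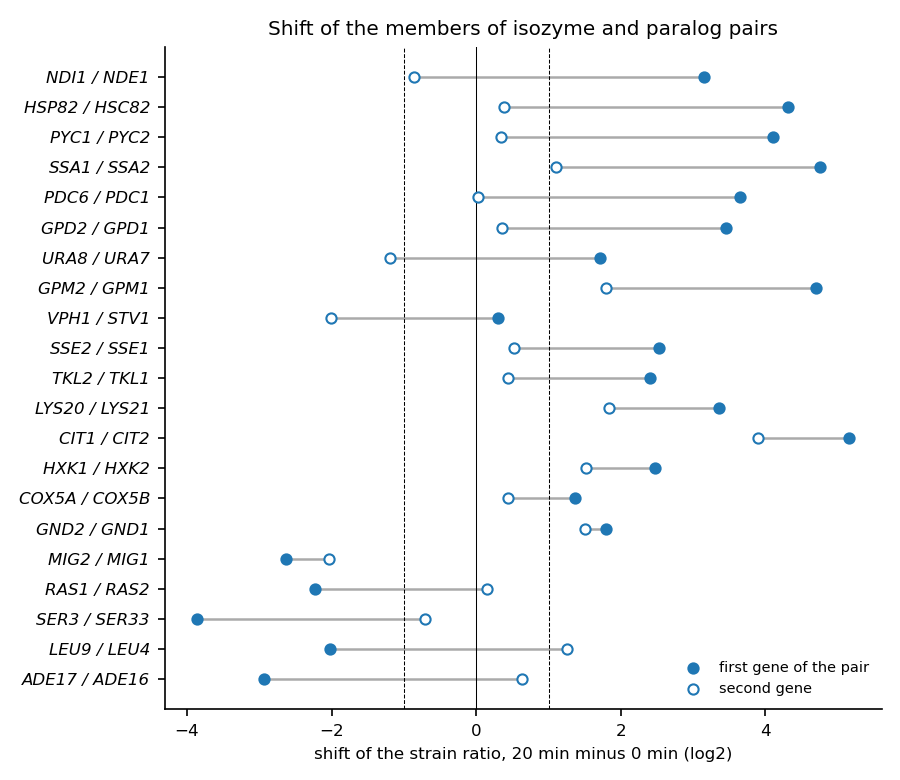
Each row is a pair of isozymes or paralogs, with a filled point for the first gene named and an open point for the second at its shift of the log2 strain ratio, 20 min minus 0 min. Rows run by the difference in shift from NDI1 and NDE1 at the top to ADE17 and ADE16 at the bottom, the dashed lines mark 2-fold, and the GPM2 and GPM1 difference turns round under equal spread.

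The 12 highest and 12 lowest shifts were taken among genes with more than 1 probe, each probe shifting by 2-fold or more. Those not yet described were of mixed function. UGA2, succinate semialdehyde dehydrogenase of GABA use, had 5.02 at 20 min and 0.46 at 0 min. YRO2, a membrane protein related to HSP30, had 4.64 and 0.25, AGX1, alanine-glyoxylate aminotransferase, had 4.10 and 0.10, and ARO5 (YGL117W) had 4.57 and 0.57. On the low side, RNA14, a cleavage factor of mRNA 3′ ends, had -3.24 at 20 min and 0.25 at 0 min. VTC5, of the vacuolar polyphosphate polymerase, had -2.63 and 0.28, NTE1, a phospholipase, had -2.44 and 0.41, and YMR209C had -3.12 and 0.09. All 12 of the highest were above 3.5 at 20 min, and all 12 of the lowest were below -2.4, while at 0 min the 24 lay between -0.94 and 1.15. Genes in none of the 46 lists, 4472 in number, had 677 higher, 714 lower and a median of -0.09, so much of the shift lay outside the groups described.

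Set beside the 60 min array, the groups ended at different places. In the order 0, 20 and 60 min, the TCA cycle had median ratios of -0.07, 3.01 and 0.38, and oxidative phosphorylation had -0.13, 2.26 and 0.37. General stress genes had 0.33, 2.38 and 1.66, and fermentation genes -0.33, 2.69 and 2.44. The fermentation median hides a split, since ADH3, ADH4, ADH5 and PDC6 were positive at 20 and 60 min. At those times PDC1 had -0.30 and -0.77, PDC5 -0.91 and -1.19, and ADH1 -0.415 and -0.05. Glycolytic genes had -3.43, -0.28 and -0.47. On the negative side ribosome assembly genes had 0.05, -1.02 and -0.69, and G2/M genes 0.23, -2.04 and -1.58. Purine genes had 0.32, -0.61 and 0.23. Single genes departed from their groups in this, as SER3 had 0.64, -3.22 and -0.44, FUI1 0.92, -2.54 and 1.2, ADE17 0.15, -2.79 and 2.23, and YRO2 0.25, 4.64 and 5.04. The 60 min values share the strains and the platform with the other arrays, and their difference from 20 min was not tested.

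**Figure D5:**
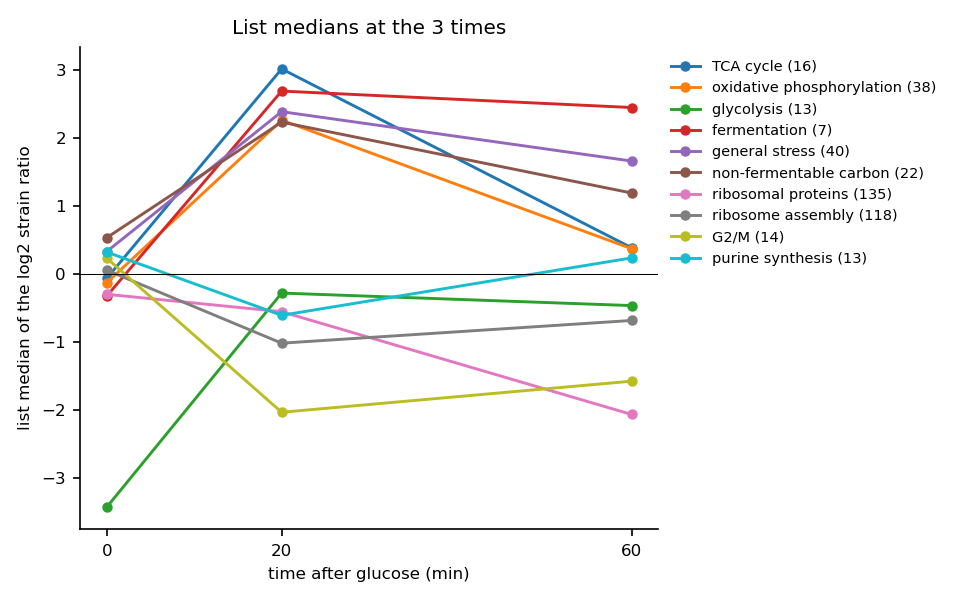
The median log2 strain ratio of 10 gene lists is plotted at 0, 20 and 60 min after glucose, 1 array each, with the number of genes in brackets. TCA cycle and oxidative phosphorylation genes are high at 20 min and near 0 at 60 min. The medians of general stress and fermentation genes are positive at both times. Within fermentation, PDC1, PDC5 and ADH1 are negative at both, while ADH3, ADH4, ADH5 and PDC6 are positive. Ribosomal proteins reach -2.07 at 60 min, and under equal spread their 20 min minus 0 min shift turns to 0.64.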

How the data were processed

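The deposited table held log2 ratios of the 2 channels for 10807 probes on 3 two-colour Agilent arrays, 1 per time point. That the deposited values are log2 was read from the gaps between tied values. Labelling used a low-input linear amplification kit, per the labels' protocols. Scanner software, background correction, normalisation, filters and the genome build of the probes are likewise not given in the sources used here. Precision is limited by the number of arrays; intensities were not analysed here. No dye-swapped array was analysed here.

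The platform annotation named the probes: 9202 had 1 gene symbol, 1605 none and 0 several. Of 5595 genes, 5590 matched NCBI RefSeq's R64 annotation, used for names and neighbours. Probes of a gene were averaged (2007 genes had 1 probe, 3576 had 2 and 12 had 3 or 4), and the 0 min value was subtracted from the 20 min value. No values were rescaled, imputed or filtered. Calls were shifts of at least 2-fold; no test was possible. Values of small whole-number ratios, also called low signal, are those where every probe of a gene was missing or within 0.001 of the log2 of a fraction whose terms are whole numbers up to 8, once the most frequent value of the array was subtracted (-0.33 at 0 min, -0.475 at 20 min), which can also occur by coincidence. There were 46 gene lists with 1123 measured genes; 11 further genes are not analysed here. The members and lists were chosen with earlier results of these data known. The rule allowed naming GCR1, the 12 highest and 12 lowest, and every gene of a list or subgroup of up to 13 genes. Of longer ones it allowed the 4 largest in the direction of the median and up to 4 beyond 2-fold in the other. Not every gene that the rule allows is named, and the choice among them was made with the values known. Genes outside this rule include MSN5, KAP95, SRP1 and MOB1, and those said to be chosen after their values were seen. The alternatives were thresholds of 1.5-fold and 3-fold, centring, equal spread (median absolute deviation), the probe nearest 0, only genes with more than 1 probe, low signal left out, only genes on all 3 arrays, zeros left out, and means over members. Scripts were tested on simulated data. Python 3.11.15, pandas 2.3.3 and NumPy 2.4.6 were used.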

Additional observations from a re-analysis of the deposited data

Results flagged for a closer look

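Probes without a gene symbol, which entered no comparison, gave more upward than downward shifts. Of 1605 such probes 1395 had a value on both arrays, and 380 of these were at least 2-fold higher and 72 at least 2-fold lower at 20 min than at 0 min. Over all genes, which are means over probes, 16.1% were higher and 16.4% lower. They were singled out because they lie outside the genes described and no control samples measure their background. Of the 499 that had no value of small whole-number ratios on either array, 140 were higher and 24 lower. The annotation used here does not say what these probes detect, and the part of dim signal in these counts was not tested.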

How the results depend on the processing

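No paired analysis was possible because there was 1 array per time point. The search for promoter motifs was not run, since no promoter sequences were used here. Of the counts of genes that rose and fell, 902 and 916, a threshold of 1.5-fold gave 1433 and 1643, 3-fold gave 461 and 331, and only genes with more than 1 probe gave 539 and 590. Equal spread gave 1417 higher. The counts of 736 and 728 that moved from within 2-fold to beyond it were 466 and 385 under equal spread and 436 and 468 with more than 1 probe, where fewer genes were counted. The median shift of -0.09 was 0.06 after centring and 0.10 under equal spread. Under equal spread list medians turned to -0.02 for glycogen, 0.64 for ribosomal proteins (0.64 for either subunit), -0.15 for translation elongation and termination, -0.01 for protein kinase A, 0.17 for glycine and one-carbon, 0.50 for mating (0.86 for pheromones and receptors, 1.90 for arrest and fusion), -0.20 for permeases, -0.35 for non-fermentable transport, -0.40 for the carnitine shuttle, -0.64 for NADH dehydrogenases and 0.051 for cell separation. Single shifts turned there to -0.58 for ACS1, -3.03 for ADH5, -0.11 for CIT3, -0.09 for DIC1, 0.21 for ERG5, -0.14 for GLK1, -0.76 for GND1, 0.33 for HXT7, 0.62 for NRG2, 0.06 for RPL12A, 1.37 for RPL7B, 0.15 for SST2 and -0.40 for URA8, and the GPM2 minus GPM1 difference to -11.19. With more than 1 probe the activators turned to -0.17 and the methionine and cysteine genes to 0.011. Iron uptake turned to 0.062 without low signal, and mating signalling to -0.17 as a mean. Centring adds 0.15 to every shift, and 4 of 105 list and subgroup medians turned with it, to 0.08 for trehalose, 0.09 for peroxisome assembly, 0.008 for the aromatic pathway and 0.071 for AMP and GMP synthesis, against 15 of 105 under equal spread. Of 210 counts of list members that rose or fell, 34 moved by more than 1.5 times, or from 0, with centring, 85 under equal spread and 59 with more than 1 probe. The cause of the turns under equal spread is its construction, which multiplies the 0 min ratios by 3.22; for the other settings the cause was not tested. Dim spots limit 526 genes, and signal over background was not analysed here.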

Other observations

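Genes that are neighbours on a chromosome were compared, with neighbours taken from NCBI RefSeq's R64 annotation. Over 1331 divergent pairs, which share the sequence between their starts, the shifts of the partners had a Pearson correlation of 0.17 and a Spearman correlation of 0.15. Over 2501 pairs on the same strand both were 0.10, and over 1380 convergent pairs they were 0.01 and 0.01. Among divergent pairs, both partners were at least 2-fold higher in 47, both lower in 49, and on opposite sides in 48. These numbers were 94, 76 and 106 among same-strand pairs and 35, 38 and 78 among convergent pairs. Over all genes 16.1% were higher and 16.4% lower, and the counts of pairs that these shares alone would give were not computed. Pairs share the same arrays and genes are not independent, so these values are descriptions with no p-value. The chromosome medians of the shift lay between -0.17 and 0.04 over 16 chromosomes.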
